A study of Mus musculus with 8 samples.

Results

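The suppressors of cytokine signalling (SOCS) are 8 genes, Socs1 to Socs7 and Cish, of which 5 (Socs1, Socs2, Socs3, Socs5 and Cish) were measured here, by 6 of the 12422 probe sets analysed. A probe set was taken where its only gene symbol in the platform annotation was one of these names, and Socs3 had 2 probe sets. No probe set of the annotation carries Socs4, Socs6 or Socs7, so these were not analysed here. The family was described in mouse embryonic fibroblasts (MEFs), connective tissue cells grown from embryos that had immortalised spontaneously in culture. The 4 groups were STAT3-/- MEFs with oncostatin M (OSM), STAT3-/- MEFs untreated, STAT3+/+ MEFs with OSM and STAT3+/+ MEFs untreated. OSM was given at 20 ng/ml for 30 minutes, and the titles decide which cells received it, since the growth text mentions it for all samples. Each group held 2 arrays, numbered 2 and 3 in the titles and called replicates 2 and 3 here. All cells grew in medium with 10% serum and 2 mM glutamine. One line stood for each genotype, and what STAT3 itself contributed cannot be told apart from whatever else sets both lines apart.

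SOCS proteins are feedback inhibitors of cytokine receptors. A cytokine of the interleukin-6 family such as OSM brings gp130 receptors together, the bound JAK kinases phosphorylate STAT3, and STAT3 switches on Socs genes within minutes. The SOCS proteins then bind the receptor or the kinase through an SH2 domain, and a C-terminal SOCS box recruits the elongin and cullin proteins of a ubiquitin ligase. Fibroblasts respond to OSM through Osmr and gp130, and Socs3 is the family member best known for limiting gp130 signals.

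Socs1 and Socs3 had different patterns. Socs1 stood out in STAT3-/- MEFs given OSM, with log2 values of 8.31 and 11.4, and was under 5, a level read here as near background, on every other array. Socs3 was highest in STAT3+/+ MEFs given OSM, 4.89 above untreated STAT3+/+ MEFs on the log2 scale. Socs2 was higher with OSM in each genotype and each replicate, Socs5 differed by under 1 log2 unit, and Cish was above its other values on 1 array. None of these differences passed the test over all probe sets, and the values of every array are therefore given. Values are log2 GCRMA expression values, a scale on which 1 unit is a 2-fold change. They were compared between groups for the same probe set and not between genes, because probe sets differ in brightness. Fewer cells expressing a gene and less RNA per cell cannot be told apart in such bulk samples.

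Over all 8 arrays the replicate number was the larger source of variation. The first principal component held 56.0% of the variance and placed the replicate 3 arrays at 32.5 to 51.5 and the replicate 2 arrays at -54.7 to -19.4, with STAT3-/- OSM replicate 2 nearest to the other side. Fitted with the number as a term, limma called 41.1% of the 6756 tested probe sets different between replicates. Every number held all 4 groups, so the differences within replicate 2 and within replicate 3 are given beside each pooled one. The first of 2 Stat3 probe sets read 8.70 and 9.17 in STAT3-/- OSM, 8.08 and 7.81 in STAT3-/- untreated, 11.8 and 11.9 in STAT3+/+ OSM, and 10.1 and 10.5 in STAT3+/+ untreated. The second Stat3 probe set read 2.94 and 7.30 in STAT3-/- OSM and 2.76 and 2.86 in STAT3-/- untreated, against 12.0 and 12.6 in STAT3+/+ OSM and 9.80 and 10.9 in STAT3+/+ untreated. STAT3-/- OSM replicate 3 thus stood apart from the other STAT3-/- arrays at this probe set. The sources used here do not place the deletion relative to either probe set. Of 13 fibroblast markers on the array 11 reached a log2 value of 5 on all arrays, whereas 9 of 11 leukocyte, 7 of 9 epithelial, 5 of 8 endothelial and 8 of 9 muscle markers were under 5 on all arrays. The mean level of the leukocyte list was 3.90 and 4.12 in STAT3-/- OSM and 3.82 to 4.26 in the other groups.

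**Figure D1:**
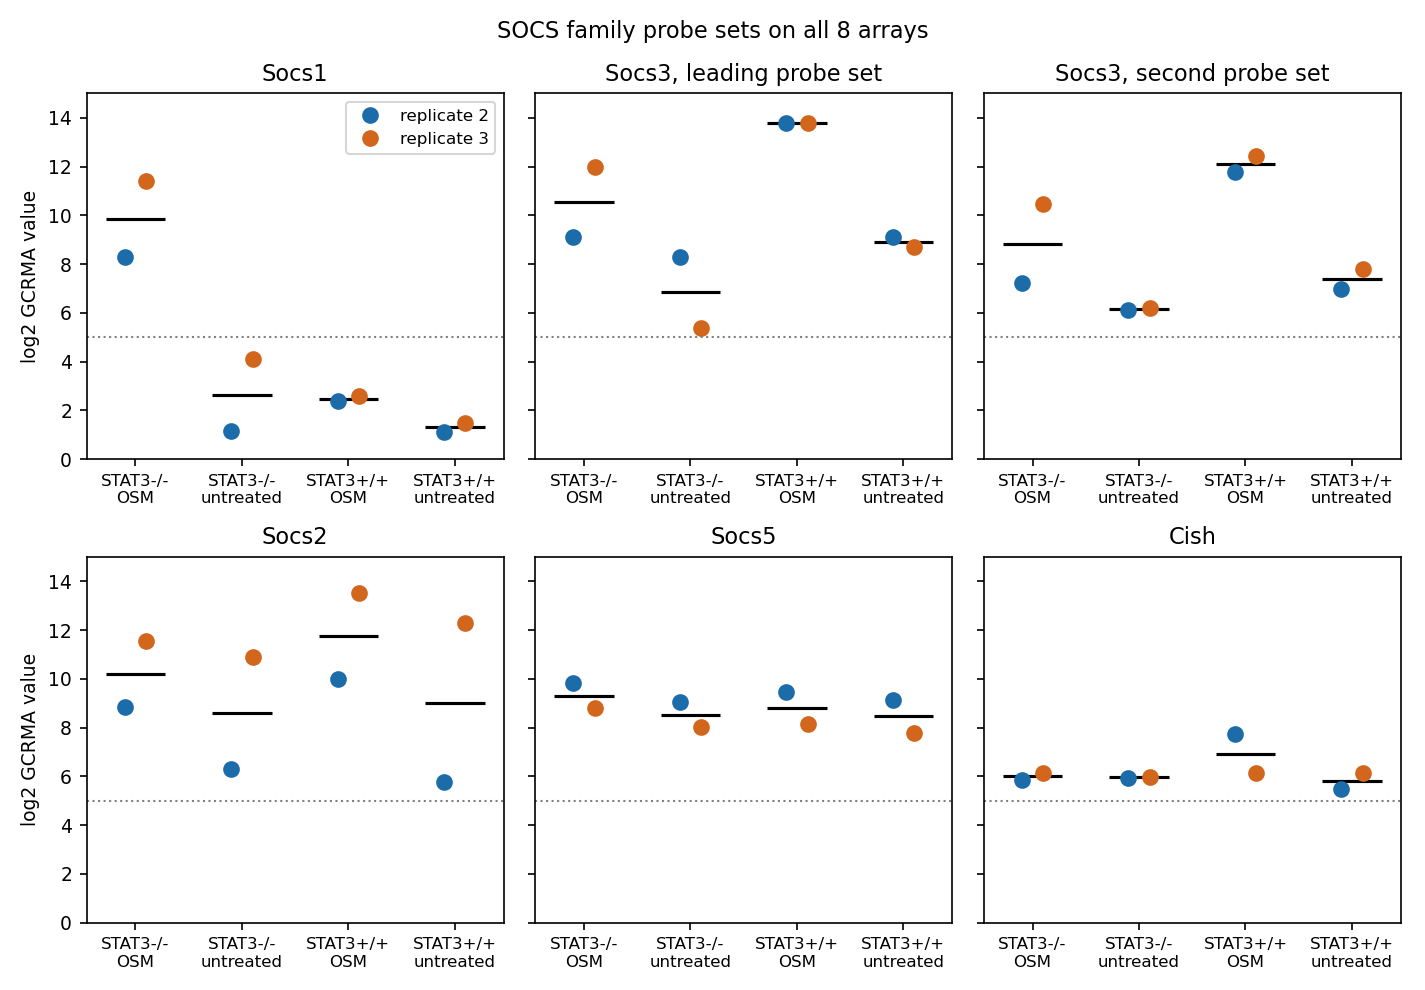
Log2 GCRMA values of the 6 SOCS family probe sets on all 8 arrays, by group, with replicate 2 in blue, replicate 3 in orange, black bars for the means of 2 arrays and a dotted line at the filter level of 5. Socs1 reached 8.31 and 11.4 in STAT3-/- OSM and stayed under the line elsewhere, while the leading Socs3 probe set read 13.8 on both STAT3+/+ OSM arrays.

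SOCS3 is the inhibitor that binds phosphorylated gp130 and blocks the attached JAK. Its leading probe set, the one with the higher mean, read 9.12 in replicate 2 and 12.0 in replicate 3 of STAT3-/- OSM, and 8.31 and 5.38 in STAT3-/- untreated. In STAT3+/+ OSM both arrays read 13.8, against 9.10 and 8.72 in STAT3+/+ untreated. The groups with and without OSM did not overlap in either genotype, but the STAT3-/- values spread over several log2 units while the STAT3+/+ values lay close together. The OSM difference was 3.71 ± 1.20 (SE) in STAT3-/- and 4.89 ± 1.20 (SE) in STAT3+/+ MEFs (limma adjusted p = 0.9999 each). With the replicate number as a term the error was 1.24 in each (limma adjusted p = 0.409 in STAT3-/- and 0.441 in STAT3+/+). Within replicate 2 it was 0.81 in STAT3-/- and 4.70 in STAT3+/+, and within replicate 3 it was 6.61 in STAT3-/- and 5.08 in STAT3+/+. The difference between the OSM effects therefore took opposite signs, -3.89 in replicate 2 and 1.52 in replicate 3, and the pooled value of -1.19 ± 1.70 (SE) did not exceed its error (limma adjusted p = 0.99999).

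The STAT3-/- OSM replicate 3 array, where Socs3 was high, is the one where the second Stat3 probe set also read high, and its part in the Socs3 value was not tested. Without that array the Socs3 difference in STAT3-/- was 2.28 ± 1.19 (SE), and 1.72 ± 0.998 (SE) with the replicate block, a fit that takes out a common difference between replicate numbers. Without STAT3-/- OSM replicate 2 it was 5.14 ± 1.19 (SE). The second Socs3 probe set (its name has a suffix that marks probes that can match a sequence family) read 7.22 and 10.5 in STAT3-/- OSM, 6.12 and 6.22 in STAT3-/- untreated, 11.8 and 12.4 in STAT3+/+ OSM, and 6.99 and 7.78 in STAT3+/+ untreated. Its untreated STAT3-/- values lay close together, unlike those of the leading probe set. At this probe set the OSM difference was 1.10 in replicate 2 and 4.25 in replicate 3 of STAT3-/-, and 4.77 and 4.63 in STAT3+/+. The OSM effect in STAT3-/- minus that in STAT3+/+ was below 0 in both replicates (-3.68 and -0.38).

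With OSM, Socs3 was lower in STAT3-/- than in STAT3+/+ MEFs within each replicate and at each probe set. The difference at the leading probe set was -4.69 within replicate 2, -1.82 within replicate 3 and -3.25 ± 1.20 (SE) pooled (limma adjusted p = 0.9997, and 0.398 with the replicate block). At the second probe set the corresponding values were -4.55, -1.94 and -3.25 ± 1.02 (SE). Without OSM the difference at the leading probe set was -2.07 ± 1.20 (SE), with -0.79 within replicate 2 and -3.34 within replicate 3 (limma adjusted p = 0.999955).

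SOCS1 inhibits JAK kinases directly and is best known as the brake on interferon signalling. Its probe set read 8.31 in replicate 2 and 11.4 in replicate 3 of STAT3-/- OSM, against 1.14 and 4.10 in STAT3-/- untreated. In STAT3+/+ OSM it read 2.40 and 2.58, against 1.13 and 1.49 in STAT3+/+ untreated. Both STAT3-/- OSM arrays lay above all 6 others, and those 6 were near background, so each Socs1 difference is one from levels that were not well measured. The OSM difference in STAT3-/- was 7.16 within replicate 2 and 7.30 within replicate 3 as deposited. With values under 5 set to 5 it was 3.31 within replicate 2 and 6.40 within replicate 3, so the closeness of the deposited differences rests on the dim untreated values. Pooled, the difference as deposited was 7.23 ± 1.27 (SE; limma adjusted p = 0.9999, and 0.131 with the replicate block).

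In STAT3+/+ MEFs the Socs1 OSM difference was 1.18 ± 1.27 (SE), from 1.27 in replicate 2 and 1.09 in replicate 3, between values that were all near background. The OSM effect was larger in STAT3-/- than in STAT3+/+ by 5.89 within replicate 2 and 6.21 within replicate 3 as deposited, and by 3.31 and 6.40 with values under 5 set to 5. The pooled interaction was 6.05 ± 1.80 (SE; limma adjusted p = 0.99999, and 0.913 with the replicate block). Set side by side with OSM, Socs1 was higher in STAT3-/- than in STAT3+/+ by 5.90 in replicate 2 and 8.82 in replicate 3, and by 7.36 ± 1.27 (SE) pooled (limma adjusted p = 0.461, and 0.0850 with the block). Without OSM the genotypes differed by 0.01 in replicate 2 and 2.62 in replicate 3, between values under 5. With all values under 5 set to 5, Socs1 was at 5 in the other 3 groups, and the pooled OSM difference in STAT3-/-, the interaction and the genotype difference with OSM each became 4.85. The Socs1 probe set passed the filter on dim probe sets only through its STAT3-/- OSM arrays. Without STAT3-/- OSM replicate 3 the difference was 5.68 ± 1.25 (SE), and within replicate 2, which does not hold that array, it was 7.16 as deposited and 3.31 with values set to 5.

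**Figure D2:**
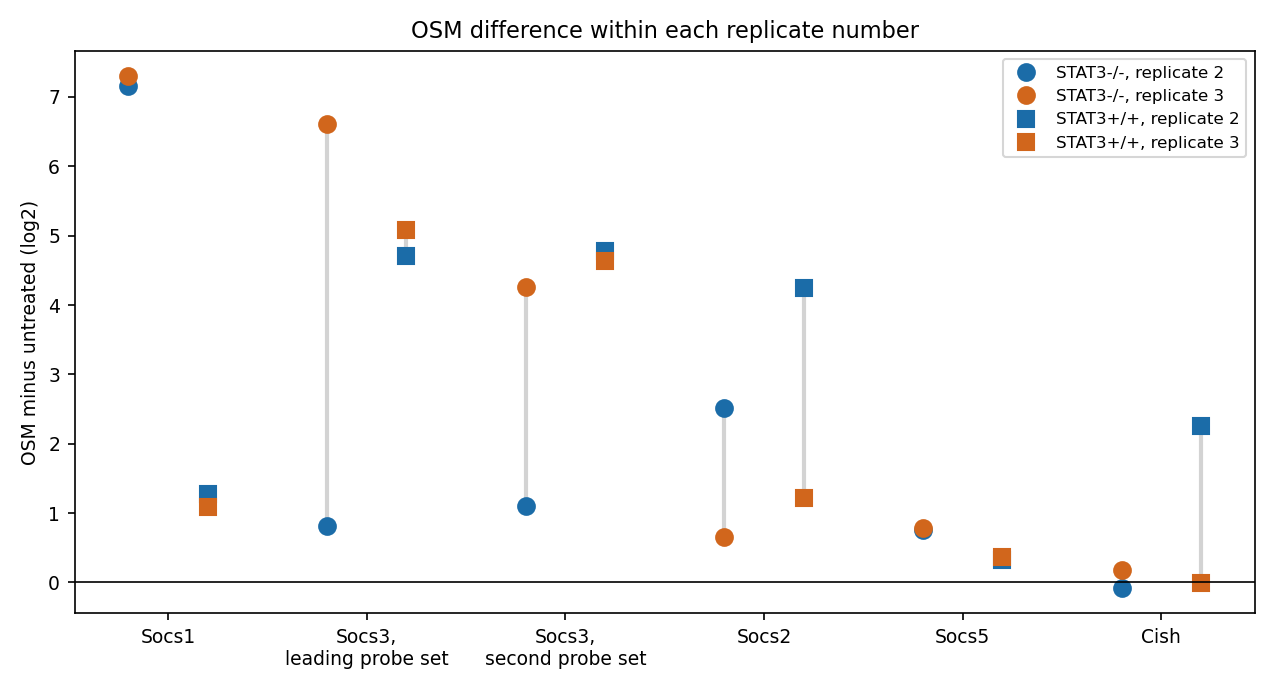
OSM minus untreated log2 difference of each SOCS family probe set within replicate 2 (blue) and replicate 3 (orange), with circles for STAT3-/- and squares for STAT3+/+ MEFs and grey lines joining both replicates of a genotype. Socs1 separates the genotypes in both replicates (7.16 and 7.30 against 1.27 and 1.09, all taken from untreated values near background), while the STAT3-/- values of the leading Socs3 probe set run from 0.81 to 6.61.

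Counts over the 5 SOCS genes are set here beside the shares over the whole array. Limma called 0 of the 5 SOCS genes in each of the 5 comparisons, with a background of 0% of probe sets for OSM in STAT3-/-, OSM in STAT3+/+, the untreated genotype difference and the interaction, and of 0.0148% for the genotype difference with OSM. At an unadjusted limma p under 0.05 there were 138 probe sets (2.04%) for OSM in STAT3-/- and 126 (1.865%) for OSM in STAT3+/+. There were 151 (2.24%) for the untreated genotype difference, 243 (3.60%) for that with OSM and 29 (0.43%) for the interaction. Of the SOCS genes, Socs1 and Socs3 were among them for OSM in STAT3-/- and for the genotype difference with OSM. Socs3 was among them for OSM in STAT3+/+ and Socs1 for the interaction. With the replicate block the shares were, in the same order, 11.04%, 7.18%, 9.67%, 12.05% and 3.67% of probe sets. They held 3, 2, 0, 2 and 1 of the SOCS genes. An unadjusted p under 0.05 was thus more common with the block in each comparison. With the replicate block, SOCS adjusted p-values ranged from 0.131 to 0.981 for OSM in STAT3-/- and from 0.256 to 0.912 for OSM in STAT3+/+. A rule without a test asked for at least a 2-fold difference in the same direction within both replicates, each gene counted by its leading probe set. With OSM in STAT3-/- MEFs it was met by 1 of 5 SOCS genes, Socs1, against 2.19% of probe sets, and in STAT3+/+ MEFs by 3 of 5, Socs1, Socs2 and Socs3, against 2.01%. The second Socs3 probe set met it in STAT3-/- MEFs too (1.10 and 4.25), while Socs1 met it in STAT3+/+ MEFs between values near background only. Between genotypes with OSM, Socs1 was higher by this rule (2.04% of probe sets were) and Socs2 and Socs3 were lower (1.73% were). The OSM effect was larger in STAT3-/- by this rule for Socs1, against 1.42% of probe sets, and smaller for 0 of 5 SOCS genes, against 0.77%. With values under 5 set to 5, the count for OSM was 1 of 5 in STAT3-/- (Socs1, against 2.04% of probe sets) and 2 of 5 in STAT3+/+ (Socs2 and Socs3, against 1.85%). The other counts were the same genes, with backgrounds of 1.91% higher and 1.49% lower between genotypes with OSM, and 1.17% larger and 0.622% smaller for the OSM effect. Socs1 passed the filter only through its STAT3-/- OSM arrays, so its place in the counts higher or larger in STAT3-/- was largely fixed by the filter. Those counts and its unadjusted p-values are therefore no support for Socs1, with or without values set to 5.

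**Figure D3:**
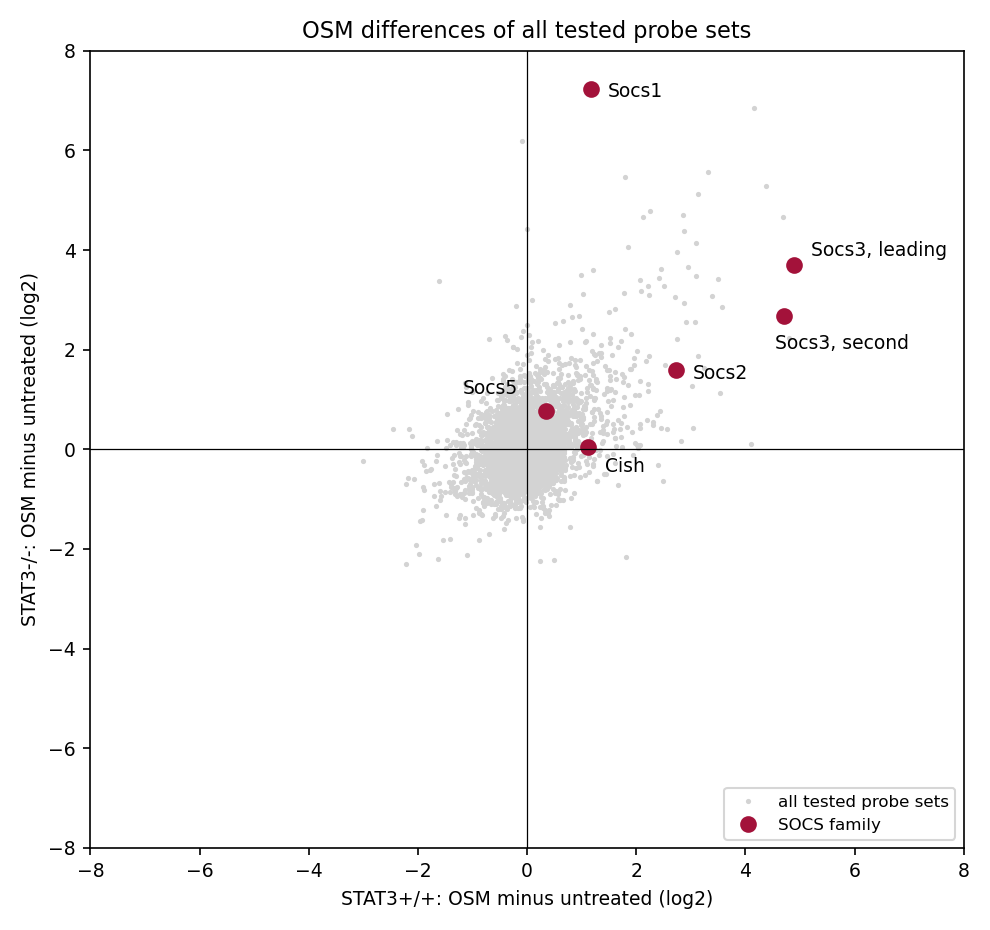
Log2 OSM minus untreated differences of all 6756 tested probe sets (grey), in STAT3-/- MEFs on the vertical axis and STAT3+/+ MEFs on the horizontal axis, with the SOCS family in red. Socs1 lies at 7.23 on the vertical and 1.18 on the horizontal axis, both taken from untreated values near background, and both Socs3 probe sets lie far right (4.89 and 4.70).

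STAT3 is known to act on Socs genes through their promoters, so the RefSeq start regions of the 3 measured SOCS genes that the promoter table holds (Socs1, Socs3 and Cish) are printed, each 250 bases before to 50 bases after the start in GRCm38.p6. Both strands were searched for TTCNNNGAA, the palindromic STAT motif, which 8.30% of 32851 such windows hold, and for TGANTCA, the AP-1 motif, which 7.81% hold. A paired GAAA motif with 2 bases between the copies (GAAANNGAAA), the kind bound by interferon regulatory factors, was added after the Socs1 window had been read, and 3.44% hold it. Matches are in capitals.
Socs3, chr11:117969317-117969616, minus strand: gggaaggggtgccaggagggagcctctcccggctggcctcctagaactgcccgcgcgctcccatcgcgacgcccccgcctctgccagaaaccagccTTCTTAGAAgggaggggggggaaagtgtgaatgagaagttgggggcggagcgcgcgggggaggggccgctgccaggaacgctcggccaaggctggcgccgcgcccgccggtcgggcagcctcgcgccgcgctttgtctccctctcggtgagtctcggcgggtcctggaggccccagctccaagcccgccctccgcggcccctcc
Socs1, chr16:10785487-10785786, minus strand: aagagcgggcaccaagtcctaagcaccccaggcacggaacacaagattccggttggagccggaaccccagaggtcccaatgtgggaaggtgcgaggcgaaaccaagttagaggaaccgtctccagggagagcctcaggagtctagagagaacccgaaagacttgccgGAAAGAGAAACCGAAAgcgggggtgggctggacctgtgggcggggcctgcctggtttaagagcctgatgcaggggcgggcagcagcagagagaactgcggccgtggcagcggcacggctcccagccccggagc
Cish, chr9:107296409-107296708, plus strand: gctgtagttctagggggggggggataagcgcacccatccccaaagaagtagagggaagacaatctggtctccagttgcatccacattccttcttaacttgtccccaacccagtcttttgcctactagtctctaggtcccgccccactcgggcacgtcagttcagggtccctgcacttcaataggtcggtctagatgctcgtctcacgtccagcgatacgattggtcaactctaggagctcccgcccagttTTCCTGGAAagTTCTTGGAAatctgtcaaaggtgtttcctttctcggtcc

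The Socs3 window held 1 STAT motif, TTCTTAGAA, at -154 to -146 from the start. The start used in the table lies 970 bases inside the outermost annotated end of Socs3. The Socs1 window held no STAT motif and 2 overlapping paired GAAA motifs, at -83 to -74 and -77 to -68. The Cish window held 2 STAT motifs just after the start, TTCCTGGAA at 1 to 9 and TTCTTGGAA at 12 to 20. None of the 3 windows held the AP-1 motif. A match describes letters in the window only, and no binding was measured on these arrays.

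Cish (CIS), the founding member of the family, is known as a target of STAT5 downstream of erythropoietin, prolactin and growth hormone. It read 5.86 and 6.16 in STAT3-/- OSM, 5.94 and 5.98 in STAT3-/- untreated, 7.75 and 6.12 in STAT3+/+ OSM, and 5.50 and 6.13 in STAT3+/+ untreated. Apart from STAT3+/+ OSM replicate 2, the 7 arrays spanned less than 1 log2 unit and the groups overlapped. The OSM difference was 0.05 ± 0.59 (SE) in STAT3-/- and 1.12 ± 0.59 (SE) in STAT3+/+ MEFs (limma adjusted p = 0.9999 each). In STAT3+/+ it came from replicate 2 (2.25), while replicate 3 gave -0.01. The genotype difference with OSM was likewise -1.89 in replicate 2 and 0.04 in replicate 3.

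SOCS2 restrains growth hormone signalling, and mice without it grow large. Its probe set read 8.83 in replicate 2 and 11.5 in replicate 3 of STAT3-/- OSM, against 6.31 and 10.9 in STAT3-/- untreated. In STAT3+/+ OSM it read 10.0 and 13.5, against 5.76 and 12.3 in STAT3+/+ untreated. With and without OSM the groups overlapped in each genotype, since every replicate 3 array lay above every replicate 2 array. The OSM difference was 2.52 in replicate 2 and 0.65 in replicate 3 of STAT3-/-, and 4.24 and 1.22 in STAT3+/+. Pooled without the block it was 1.59 ± 2.63 (SE) in STAT3-/- and 2.73 ± 2.63 (SE) in STAT3+/+ (limma adjusted p = 0.9999 each). That error holds the difference between replicate numbers. With the replicate block the error was 0.88 in each genotype (limma adjusted p = 0.536 in STAT3-/- and 0.549 in STAT3+/+). With OSM, Socs2 differed between STAT3-/- and STAT3+/+ by -1.17 in replicate 2 and -1.97 in replicate 3.

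SOCS5 is a widely expressed member known for limiting epidermal growth factor receptor and interleukin-4 signals. It read 9.82 and 8.79 in STAT3-/- OSM, 9.06 and 8.01 in STAT3-/- untreated, 9.47 and 8.17 in STAT3+/+ OSM, and 9.15 and 7.80 in STAT3+/+ untreated. Within each replicate the array with OSM was above its untreated partner, by 0.75 and 0.79 in STAT3-/- and by 0.32 and 0.37 in STAT3+/+. Replicates of a pair were thus close in size, though the pooled groups overlapped. The pooled differences were 0.77 ± 0.74 (SE) and 0.35 ± 0.74 (SE), and with the replicate block their errors were 0.23 (adjusted p = 0.386 in STAT3-/- and 0.888 in STAT3+/+, limma).

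The replicate number moved Socs2 and Socs5 in opposite directions. Socs2 was higher in replicate 3 by 2.72 in STAT3-/- OSM, 4.58 in STAT3-/- untreated, 3.52 in STAT3+/+ OSM and 6.55 in STAT3+/+ untreated, and by 4.34 ± 0.62 (SE) in the fit with number as a term (limma adjusted p = 0.00683). Socs5 was lower by 1.18 on average, with a difference of -1.18 ± 0.16 (SE; limma adjusted p = 0.00610) and a range over the 4 groups of -1.35 to -1.02. These 2 of 5 genes were called, against a background of 41.1%, so a call of this kind was common on the array. Socs1 was higher in replicate 3 by 3.10 and 2.96 in STAT3-/- OSM and untreated, and by 0.18 and 0.36 in STAT3+/+ OSM and untreated. Leading Socs3 values differed in sign between groups, with 2.86 in STAT3-/- OSM, -2.93 in STAT3-/- untreated, -0.00282 in STAT3+/+ OSM and -0.39 in STAT3+/+ untreated. What the number marks is not stated in the labels. The array's 18S ribosomal RNA control moved with the number too, at 14.7 to 15.1 for replicate 3 arrays against 11.02 to 11.7 for replicate 2 arrays. RNA quality, as read from how far the 3' actin probe set exceeded the 5' one, also went with the number, at 0.72 to 1.11 log2 units for replicate 3 arrays against 0.33 to 0.53 for replicate 2 arrays. The part of either control in the replicate differences was not tested.

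**Figure D4:**
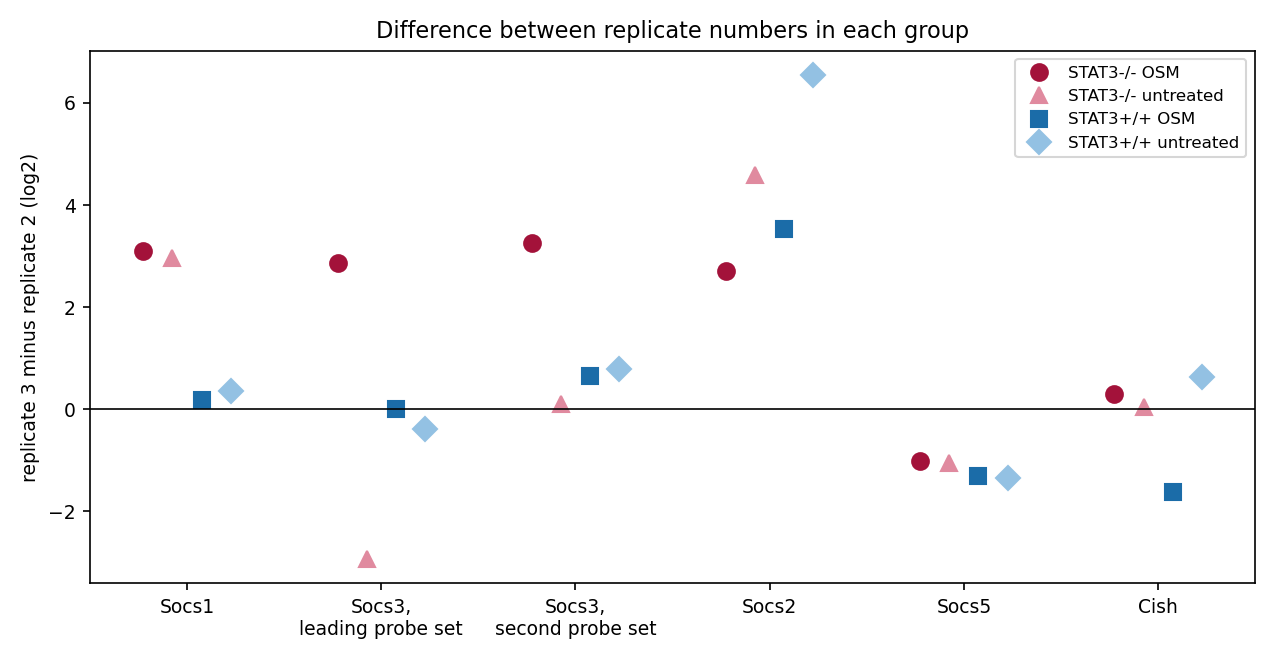
Replicate 3 minus replicate 2 log2 difference of each SOCS family probe set in the 4 groups, with STAT3-/- groups in red tones and STAT3+/+ groups in blue tones. All 4 groups lie above 0 for Socs2 (2.72 to 6.55) and below 0 for Socs5 (-1.35 to -1.02).

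The measured members followed each other to different degrees across arrays. Over the 8 arrays, Pearson's r between the Socs3 probe sets was 0.94, whereas that between Socs1 and Socs3 was 0.12 at the leading and 0.16 at the second Socs3 probe set. Cish and Socs3 had r = 0.58 at the leading and 0.62 at the second probe set, Socs2 and Socs3 had 0.36 and 0.61, and Socs2 and Socs5 had -0.63. These arrays share the replicate numbers and the normalization, so r is a description only. Among 5194 tested genes the 5 with the highest r with the leading Socs3 probe set were Tnfrsf1a, a tumour necrosis factor receptor (r = 0.963), Fth1, the ferritin heavy chain (0.926), Cmtm6 (0.925), the activin-binding Fst (0.923) and Stk19 (0.921). Tnfrsf1a read 12.1 and 12.4 in STAT3-/- OSM, 11.9 and 11.2 in STAT3-/- untreated, 12.9 and 13.2 in STAT3+/+ OSM, and 11.6 and 11.8 in STAT3+/+ untreated. Its OSM arrays were above their untreated partners in both genotypes, and its highest values were in STAT3+/+ OSM, as for Socs3. Tnfrsf1a was picked for its r with Socs3 over these same arrays, so this likeness is no separate support.

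Other genes of the pathway came from listed components, and limma called 0 of them in either direction in either OSM comparison. For the 20 tested gp130 and JAK-STAT components the median OSM difference was 0.22 in STAT3-/- and -0.01 in STAT3+/+ MEFs, near the medians of 0.02 and -0.04 over all probe sets. The 4 with the largest OSM differences were Osmr, Il6, Jak2 and Stat3. Osmr, the receptor subunit that binds OSM, read 10.5 and 13.0 in STAT3-/- OSM against 6.84 and 9.87 in STAT3-/- untreated, and 12.8 and 14.2 in STAT3+/+ OSM against 9.91 and 13.0 in STAT3+/+ untreated. It was higher with OSM within each replicate of each genotype. Jak2, a JAK kinase that SOCS1 and SOCS3 inhibit, read 9.75 and 10.7 in STAT3-/- OSM against 8.15 and 9.88 untreated. In STAT3+/+ OSM it read 12.2 and 12.7, against 10.8 and 11.02 untreated. All 4 STAT3-/- values of Jak2 lay below all 4 STAT3+/+ values, but limma did not call the genotype difference. It was -1.89 ± 0.64 (SE) untreated and -2.21 ± 0.64 (SE) with OSM (limma adjusted p = 0.999955 and 0.9997, and 0.372 and 0.134 with the replicate block).

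The 5 tested genes of the SOCS box ubiquitin ligase had a median OSM difference of 0.05 in STAT3-/- and 0.14 in STAT3+/+ MEFs. Elongin C (Eloc), which docks on the SOCS box, had the largest, 0.68 in STAT3-/- and 0.75 in STAT3+/+, and elongin B (Elob) differed by -0.25 and 0.03. Of 5 other tested SOCS box proteins, Spsb1, which binds its targets through a SPRY domain, read 10.6 and 12.9 in STAT3-/- OSM against 7.73 and 11.5 in STAT3-/- untreated. In STAT3+/+ OSM it read 9.69 and 11.05, against 9.07 and 11.5 in STAT3+/+ untreated. The Spsb1 probe set has the suffix that marks probes that can match a sequence family. Wsb1 had OSM differences of 1.46 in STAT3-/- and 0.05 in STAT3+/+ MEFs. The median of these 5 was 0.49 in STAT3-/- and -0.07 in STAT3+/+ MEFs, and within replicates it was 0.88 and 0.11 in STAT3-/- and -0.33 and -0.34 in STAT3+/+.

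Genes known as rapid cytokine targets were mostly higher with OSM, 21 of 22 in STAT3-/- with a median of 1.11 and 19 of 22 in STAT3+/+ with a median of 1.69, and limma called 0. Of all 6756 tested probe sets 3528 were above 0 in STAT3-/- and 2960 in STAT3+/+. This list and the interferon list below were chosen with earlier results of these data known. Bcl3, an NF-kB cofactor, was like Socs3 in reading highest in STAT3+/+ OSM, with 6.55 and 7.77 in STAT3-/- OSM, 7.22 and 4.83 in STAT3-/- untreated, 11.5 and 11.3 in STAT3+/+ OSM, and 6.82 and 8.88 in STAT3+/+ untreated. Cebpd, a C/EBP transcription factor, had an OSM difference of 1.88 in STAT3-/- and 3.12 in STAT3+/+ MEFs. Fosl1, an AP-1 subunit, had 4.14 in STAT3-/- and 3.10 in STAT3+/+ MEFs.

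Interferon-stimulated genes were set beside Socs1, which belongs to the same response. Of 21 tested, 20 were above 0 with OSM in STAT3-/- (median 1.69, and 2.07 and 1.87 within replicates 2 and 3) and 16 in STAT3+/+ (median 0.82, and 0.48 and 0.70), and limma called 0. Of all 6756 tested probe sets 3528 and 2960 were above 0 in these comparisons. Between genotypes 2941 were above 0 without OSM and 3375 with OSM. The interferon list was already higher in STAT3-/- than in STAT3+/+ MEFs without OSM for 19 of 21 (median 1.82, but 0.12 within replicate 2 and 2.92 within replicate 3), and with OSM for 21 of 21 (median 2.64, and 0.89 and 3.19). Untreated Socs1 likewise differed by 0.01 in replicate 2 and 2.62 in replicate 3, between values near background, and the part of this shift in the Socs1 result was not tested. Igtp, an interferon-inducible GTPase, read 12.6 and 14.97 in STAT3-/- OSM against 4.96 and 13.0 in STAT3-/- untreated, and 7.72 and 12.3 in STAT3+/+ OSM against 5.40 and 10.1 in STAT3+/+ untreated. Its replicate 3 values were high in every group, which was not so for Socs1 in STAT3+/+ MEFs. The other interferon-stimulated genes named by the rule did not share 1 order of the genotypes. Psmb8, an immunoproteasome subunit, had an OSM difference of 1.27 in STAT3-/- and 3.01 in STAT3+/+ MEFs. Its untreated values were 8.96 and 11.8 in STAT3-/-, but 4.74 and 4.96, near background, in STAT3+/+. The GTPase Ifi47 had 3.43 in STAT3-/- and 3.50 in STAT3+/+, and the GTPase Iigp1 had 2.82 in STAT3-/- and 1.61 in STAT3+/+ MEFs. Untreated Ifi47 was near background in replicate 2, at 4.54 in STAT3-/- and 4.51 in STAT3+/+. The Iigp1 probe set has the suffix for probes that can match a sequence family. Irf1, an interferon-inducible transcription factor, lies outside the rule for named genes and was picked after its values were seen. It read 13.5 and 14.8 in STAT3-/- OSM against 11.4 and 12.8 in STAT3-/- untreated, and 11.1 and 11.9 in STAT3+/+ OSM against 10.9 and 12.0 in STAT3+/+ untreated. Its OSM difference was 2.06 ± 0.71 (SE) in STAT3-/- and 0.07 ± 0.71 (SE) in STAT3+/+ MEFs (limma adjusted p = 0.9999 each).

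**Figure D5:**
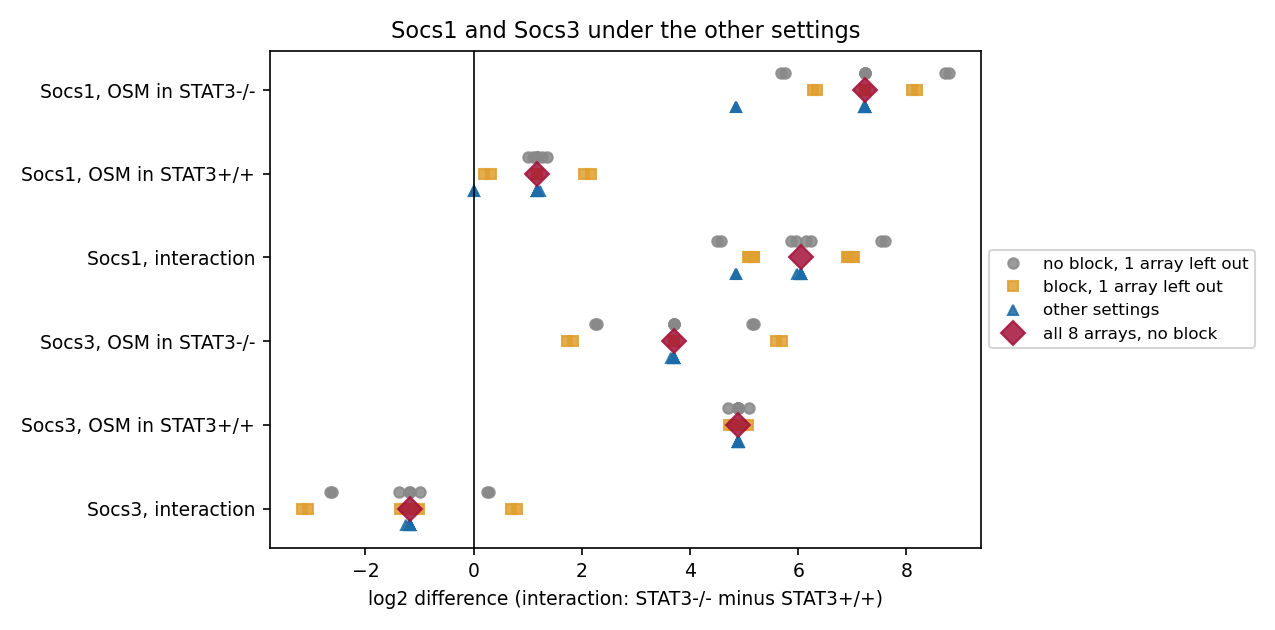
Log2 differences of Socs1 and of the leading Socs3 probe set for OSM in STAT3-/-, OSM in STAT3+/+ and their difference, from all 8 arrays (red diamonds), with 1 array left out (grey without and yellow with the replicate block) and under other settings (blue). Socs1 in STAT3-/- lies between 4.85 and 8.78, a direction largely fixed by the filter, which it passed only through its STAT3-/- OSM arrays. The Socs3 interaction (OSM effect in STAT3-/- minus that in STAT3+/+) lies on both sides of 0.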

How the data were processed

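Affymetrix arrays measured total RNA, biotin-labelled, of 8 MEF samples, per the labels. The authors deposited 1 log2 value per probe set and array, produced with GCRMA and affy, per the submitters' processing notes, without versions or a statement that all arrays were normalized together. GCRMA draws dim probe sets to low values, which can enlarge log2 differences from a dim group. Of 12488 probe sets 66 controls were left out. The platform annotation gives 1 gene symbol for 10833 probe sets, several for 396 and none for 1193, and 10817 gene IDs matched RefSeq (GRCm38.p6), used for names and promoter sequences.

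Limma 3.58.1 in R 4.3.3 (lmFit, eBayes with an intensity trend, two-sided) was fitted to all 8 arrays with 4 group means, leaving 4 residual degrees of freedom, on 6756 probe sets with a log2 value of at least 5 on at least 2 arrays. All 6 SOCS probe sets passed. Benjamini-Hochberg adjustment ran over all tested probe sets, and an adjusted p under 0.05 was called. The code was tested on simulated data. The labels do not say whether replicates were grown apart, and the spread behind each p-value may thus be technical. The number of arrays limits the precision.

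Replicate numbers were treated as pairing the samples from the data: replicate 3 minus 2 differences correlated between groups at 0.589 to 0.911. The planned fit has no block, and the replicate block is an alternative with 3 residual degrees of freedom. A gene is led by its tested probe set with the highest mean. Named were all SOCS probe sets, Stat3, the 5 genes most like Socs3 and up to 4 members per list with the largest OSM difference. Alternatives were other filters, eBayes settings, quantile normalization, only the groups compared, values under 5 set to 5, the block, within-number values, the other Socs3 probe set and each array left out. The members and lists were chosen with earlier results of these data known. The comparison of replicate numbers, the 2-fold rule within both numbers the block with values set to 5 and the within-number values set to 5 were added after seeing the data.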

Additional observations from a re-analysis of the deposited data

How the results depend on the processing

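No SOCS gene was called in any of the 620 tested alternatives of the 5 group comparisons, and 627 of 670 differences kept their direction or became 0. Socs1 kept its direction in every fit for OSM in STAT3-/- (4.85 to 8.78) and for the genotype difference with OSM (4.85 to 8.91). It did so too for the interaction (4.50 to 7.60). This was largely fixed by the filter, which Socs1 passed only through its STAT3-/- OSM arrays, and is no support for Socs1. Socs3 kept its direction for OSM in STAT3+/+ (4.70 to 5.08). The 2 calls between replicate numbers, Socs2 and Socs5, held in each fit run. Leaving out 1 array ends the balance of replicate numbers, and without a block adds part of their difference by construction.

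The replicate block called 2 probe sets for OSM in STAT3-/-, 1 for OSM in STAT3+/+ and 7 for the genotype difference with OSM, none a SOCS gene. With values under 5 set to 5 the count for OSM in STAT3-/- was 1, and with the block as well it was 2 in each genotype. The single call for the genotype difference with OSM became 0 without the trend, with robust estimation, with only the groups compared, after quantile normalization and with values set to 5. With 1 array left out, counts were 0 to 1 for OSM in STAT3-/- and for the untreated genotype difference. They were 0 to 2 for the genotype difference with OSM and 1223 to 2599 between replicate numbers. Between replicate numbers no filter gave 7210, with all 12422 probe sets tested, against 2775 of 6756 with the filter. Why this count rose was not tested.

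Some directions turned within 1 replicate, after quantile normalization or at the other Socs3 probe set, and the cause was not tested. For Cish, quantile normalization gave -0.0151 for OSM in STAT3-/- and replicate 2 alone -0.0746. Within replicate 3 Cish gave -0.0104 for OSM in STAT3+/+, -0.15 for the untreated genotype difference, 0.0377 for that with OSM and 0.19 for the interaction. Within replicate 2 the untreated genotype difference was 0.56 for Socs2 and -0.0875 for Socs5. The Socs3 interaction was 1.52 within replicate 3, and the other Socs3 probe set gave 1.20 between replicate numbers.

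With 1 array left out, Socs2 ranged from -0.70 to 3.88 for OSM in STAT3-/-, -0.54 to 6.003 for OSM in STAT3+/+, -3.70 to 2.85 for the untreated genotype difference, -3.33 to 0.19 for that with OSM and -4.42 to 2.13 for the interaction. Without the block Socs5 ranged from -0.33 to 1.02 for OSM in STAT3+/+ and -0.25 to 1.10 for the interaction. Its genotype difference ranged from -0.62 to 0.74 without and -0.17 to 1.14 with OSM. In the same order, these ranges with the block were 0.23 to 0.46, 0.31 to 0.54, -0.05 to 0.17 and 0.38 to 0.59. Ranges without the block hold part of the difference between replicate numbers by construction. With the block Cish ranged from -0.25 to 0.36 for OSM in STAT3-/- and -0.43 to 0.33 between replicate numbers. Its genotype difference ranged from -0.39 to 0.67 without and -1.90 to 0.0510 with OSM. The latter was -1.74 to -0.11 without the block. For the untreated genotype difference, Socs1 ranged from -0.17 to 2.79 without the block and from 0.44 to 2.19 with it. With the block Socs3 ranged from -3.17 to 0.80 for the interaction and from -1.11 to 0.83 between replicate numbers. The Socs3 interaction ranged from -2.65 to 0.28 without the block.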
